A study of Mus musculus with 145 samples.

Results

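RPG2 and RPG3 are 2 consecutively numbered cell clusters on the successful branch of spermatogonial stem cell (SSC) reprogramming into germline-derived pluripotent stem cells (gPSCs). The members were taken from the cell annotation that the authors deposited, which placed 47 cells in RPG2 and 261 in RPG3 of 4464 annotated cells. Transcripts of single cells were counted by modified STRT-seq, a plate method in which each captured molecule carries a unique molecular identifier (UMI), so that copies made by PCR are counted once. The SSCs came from male pups in their first week of life, of the strain labelled C57BL/6[female] X DBA[male]. According to the study's methods the mothers carried an *Oct4*-EGFP or EGFP transgene. The STRT-seq libraries of both clusters were labelled SSCR with the treatment none. They shared a medium with EGF, bFGF, GDNF and ESGRO (leukemia inhibitory factor). Libraries treated with a mixture of chemicals or with its solvent DMSO were compared separately, as described further on. The gPSC and mouse embryonic stem cell (mES) lines, used for levels only, were kept in a different medium according to the study's methods. Cells were collected singly by hand from colonies that looked like SSCs or PSCs, so that their numbers describe the collection and not the culture.

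The UMIs of all cells of a cluster were added up within each library that held 5 or more of them, and the library was the replicate. RPG2 gave 3 sums, from 8 cells of day 12 replicate 2, 15 cells of day 14 replicate 5 and 21 cells of day 14 replicate 6, and 3 further RPG2 cells of day 18 were left out. RPG3 gave 8 sums, of 7 cells on day 12 (replicate 2), 58 and 65 on day 18 (replicates 3 and 5), 29, 26 and 10 on day 20 (replicates 1, 2 and 8) and 35 and 31 on day 23 (replicates 1 and 2). All RPG2 cells belonged to the batch named B2 in the annotation, as did the 130 RPG3 cells of days 12 and 18, whereas the 131 RPG3 cells of days 20 and 23 belonged to B1. Cluster and day were therefore largely confounded: apart from the library of day 12, effects of the cluster and of the day cannot be told apart. The labels do not say that libraries were separate cultures, and p-values then measure the spread between these libraries, which may be technical. The authors defined the clusters on the same transcriptomes, so that the difference between them is a description and not an independent test.

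Primordial germ cells, the embryonic founders of sperm and eggs, are specified from the epiblast by a small group of transcription regulators. PRDM14 and TFAP2C (AP-2 gamma) are 2 of them, and DPPA3 (Stella) marks the founder population and protects DNA methylation in the early embryo. OTX2 drives the formative state, in which epiblast cells leave naive pluripotency and prepare for lineage choice, and it restricts entry into the germline. Formative cells also raise the de novo DNA methyltransferases and FGF ligands, whereas naive cells and early germ cells have little DNA methylation.

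The sums held 3534500 to 6415415 UMIs in RPG2 and 1570976 to 17474953 in RPG3. The median cell had 341308 UMIs in RPG2 and 285699 in RPG3, with 0.663% and 0.715% of them mitochondrial, and no cell name was repeated between libraries. Levels are given as CPM, UMI counts scaled to an equal library total, after TMM scaling, which adjusts for differences in composition. On the first principal component of the 11 sums, which held 43.5% of the variance, the RPG2 sums lay at 26.7 to 59.95 and 7 RPG3 sums at -32.7 to -17.0. The RPG3 sum of day 12 stood apart at 36.8, on the side of RPG2, and its 7 cells included some with as few as 4990 UMIs. For named genes, calls that turn on this sum are also given without it, as an alternative chosen after seeing the data.

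*Prdm14*, whose product represses epiblast genes in germ cell precursors, reached 54.55 CPM in the RPG2 sum of day 12 and 42.7 and 30.8 CPM in those of day 14. In RPG3 it ranged from 0.647 to 18.8 CPM with a median of 5.84. Every RPG2 sum was above every RPG3 sum, but 1 cell held 161 of the 213 *Prdm14* UMIs of the day 12 sum, which without it would be at 18.5 CPM and below the highest RPG3 sum. The log2 fold change, RPG2 against RPG3, was 2.72 (SE 0.62), with an adjusted p of 0.0171 by edgeR's quasi-likelihood test, which missed the threshold of 0.01 used for a call. Without the RPG3 sum of day 12 the edgeR adjusted p was 0.00834, and without day 23 replicate 2, the RPG3 library with the highest *Prdm14*, it was 0.00596. Leaving out any other library gave edgeR adjusted p of 0.0177 to 0.0558, the highest without day 14 replicate 5, and sums per batch and day gave 0.168. DESeq2 gave an adjusted p of 0.00118.

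*Tfap2c* was at 209.0, 264.5 and 208.2 CPM in the RPG2 sums and between 6.93 and 76.5 CPM (median 31.6) in RPG3. The clusters did not overlap, and the highest RPG3 sum was that of day 23 replicate 2. The gene was called higher in RPG2, with a log2 fold change of 2.72 (SE 0.41, edgeR adjusted p = 0.00111). *Dppa3* was at 536.5, 597.4 and 662.3 CPM in RPG2 and at 181.0 to 364.7 CPM (median 282.0) in RPG3. It did not overlap either, but its log2 fold change of 1.11 (SE 0.19, edgeR adjusted p = 0.00277) was below the minimum of 1 on the natural-log scale, so it was not called.

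*Otx2* had the opposite pattern, with 6.40 CPM in the RPG2 sum of day 12 and 0 in both sums of day 14. In RPG3 it was at 129.8 to 318.4 CPM with a median of 195.2. The lowest RPG3 sum was that of day 12, and the highest that of day 23 replicate 1. The log2 fold change was -6.73 (SE 0.76, edgeR adjusted p = 0.000109). The plot of the 4 markers by library shows these values.

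**Figure D1:**
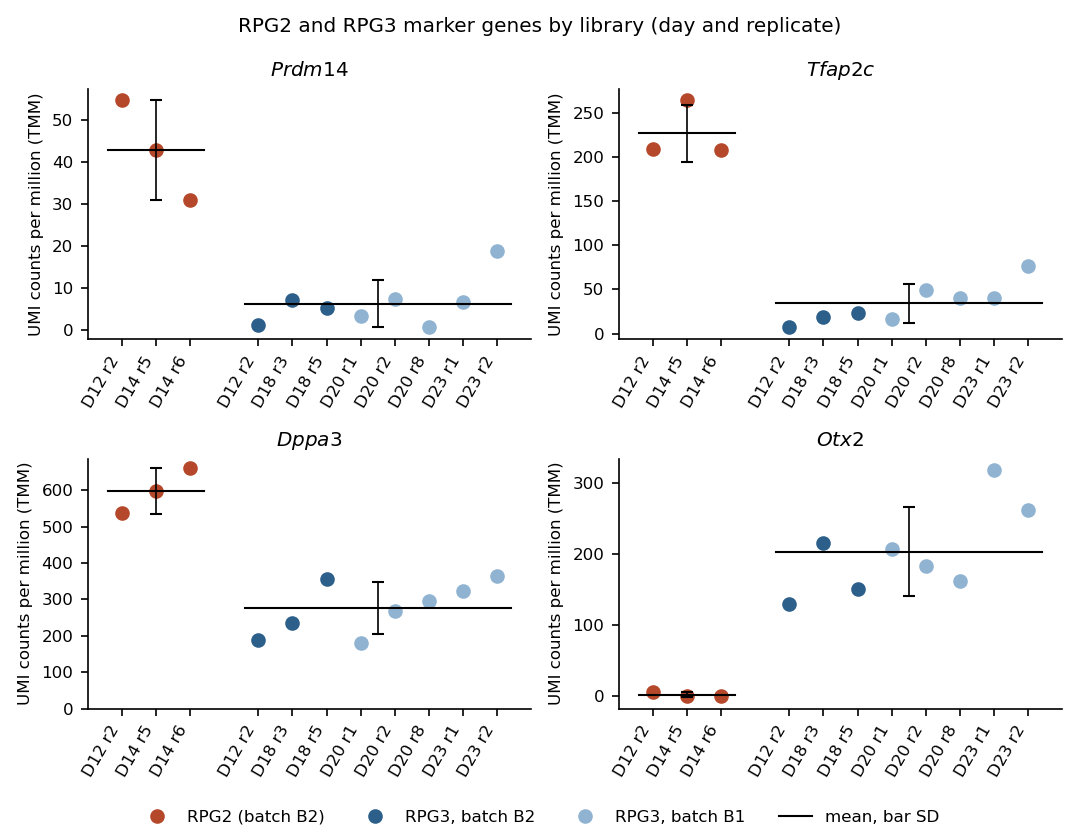
Levels of *Prdm14*, *Tfap2c*, *Dppa3* and *Otx2* as CPM (UMI counts, TMM scaled, linear axes from 0) in each library sum, by day (D) and replicate (r), with RPG2 in red, RPG3 of batch B2 in dark blue and RPG3 of batch B1 in light blue; lines are means and bars SDs over 3 and 8 sums. The 3 RPG2 sums of *Tfap2c* lie at 208.2 to 264.5 CPM, all above the 8 RPG3 sums, and those of *Otx2* lie at 0 to 6.40 CPM, all below them.

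The library of day 12 replicate 2 held cells of both clusters, processed together. Of its 8 RPG2 cells, all had *Tfap2c* UMIs, with a median of 109.5 per cell, and 6 had *Prdm14* UMIs, with a median of 5 over the 8 cells. Of its 7 RPG3 cells, 4 had *Tfap2c* UMIs with at most 4 per cell, and 2 had *Prdm14* UMIs with at most 1. *Otx2* UMIs were found in 3 of the 8 RPG2 cells, with at most 23 in a cell, and in 5 of the 7 RPG3 cells, with up to 110. Summed, *Otx2* was at 6.40 against 129.8 CPM and *Prdm14* at 54.55 against 1.26 CPM in this library. Both sums entered the comparison across libraries and were treated there as independent.

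To compare shares of cells, each cell was thinned to 100000 UMIs and shallower cells, 3 of RPG2 and 18 of RPG3, were left out. At this depth 24 of 44 RPG2 cells (54.5%, exact 95% interval 38.8 to 69.6) and 59 of 243 RPG3 cells (24.3%, 19.03 to 30.17) had a *Prdm14* UMI, against 0.532% of 1880 SSCs. Without thinning the RPG3 share was 32.2%. *Otx2* UMIs were present in 2 of 44 RPG2 cells (4.55%, 0.555 to 15.5) and in 93.0% of RPG3 cells (89.0 to 95.9), and the RPG2 share was near the 2.77% of SSCs. Before thinning, *Otx2* was found in 5 of 47 RPG2 cells (10.6%) and in 4.68% of SSCs. *Tfap2c* and *Dppa3* were detected in all 44 RPG2 cells. Their shares in RPG3, 50.6% and 95.5%, stood against 50.6% and 85.4% in SSCs, so that a UMI of *Tfap2c* was no more frequent in RPG3 than in SSCs. Both *Prdm14* and *Otx2* were detected in 58 of 243 RPG3 cells (23.9%, 18.7 to 29.7) and in 1 of 44 RPG2 cells. Of the 59 RPG3 cells with a *Prdm14* UMI, 58 thus also held *Otx2*. Before thinning, both genes were detected in 82 of 261 RPG3 cells and in 4 of 47 RPG2 cells. These intervals cover counting error only, and cells of 1 library share their source.

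Promoter sequences are shown for genes of the contrast whose promoters held a match to a short motif of 1 of the factors. Promoters are those of the RefSeq table on GRCm38.p6, from 250 bases before to 50 bases after a start, and 9865 of the 13611 genes tested matched a promoter there, with 12635 promoters in all. The motifs searched on both strands were TAATCC (OTX2), GCCNNNGGC (TFAP2C) and GGTCTCTAA (PRDM14), and capitals mark each match as it reads on the printed strand, 5′ to 3′. The promoters lie at chr14:48665060-48665359 (minus strand) for *Otx2*, chr8:84176503-84176802 (minus) for *Nanos3*, chr4:74251629-74251928 (plus) for *Kdm4c* and chr19:12573260-12573559 (plus) for *Fam111a*.
Otx2: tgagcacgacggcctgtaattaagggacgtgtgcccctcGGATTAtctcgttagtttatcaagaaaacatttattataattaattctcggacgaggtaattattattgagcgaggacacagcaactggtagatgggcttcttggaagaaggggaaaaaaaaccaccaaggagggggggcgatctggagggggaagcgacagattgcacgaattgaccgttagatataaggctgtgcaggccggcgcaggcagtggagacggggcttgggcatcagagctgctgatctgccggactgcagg
Nanos3: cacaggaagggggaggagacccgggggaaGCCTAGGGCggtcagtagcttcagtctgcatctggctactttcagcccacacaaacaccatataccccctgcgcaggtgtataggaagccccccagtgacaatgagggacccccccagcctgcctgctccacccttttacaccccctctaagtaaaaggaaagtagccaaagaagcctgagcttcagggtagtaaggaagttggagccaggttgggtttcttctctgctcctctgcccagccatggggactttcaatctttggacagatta
Kdm4c: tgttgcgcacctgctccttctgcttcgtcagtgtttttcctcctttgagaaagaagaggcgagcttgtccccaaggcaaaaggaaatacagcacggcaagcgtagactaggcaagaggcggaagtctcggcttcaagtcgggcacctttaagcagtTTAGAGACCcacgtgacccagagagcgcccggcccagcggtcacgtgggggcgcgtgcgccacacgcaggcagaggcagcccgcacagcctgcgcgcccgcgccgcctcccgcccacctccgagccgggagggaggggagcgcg
Fam111a: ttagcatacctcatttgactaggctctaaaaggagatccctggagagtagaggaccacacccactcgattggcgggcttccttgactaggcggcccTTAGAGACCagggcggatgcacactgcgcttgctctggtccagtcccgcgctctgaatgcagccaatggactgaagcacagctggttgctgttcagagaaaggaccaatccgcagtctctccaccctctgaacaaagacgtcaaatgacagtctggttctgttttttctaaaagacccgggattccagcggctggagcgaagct

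Of the 4 *Otx2* promoters in the table, the one shown was the only one with an OTX2 motif. TAATCC was found in 8.16% of the 98 promoters of genes called higher in RPG3, in 6.67% of the 45 promoters of genes called higher in RPG2 and in 5.65% of all promoters. The TFAP2C motif was found in 24.5%, 28.9% and 24.9% of them, close to the share of all promoters in both. The PRDM14 motif was found in 3 promoters of genes called higher in RPG3 (3.06%), in none of the 45 of genes called higher in RPG2 and in 31 of all 12635 (0.245%). The 3 belonged to 2 genes, since *Fam111a* had 2 overlapping promoters, and both genes were named after their values were seen. The other *Kdm4c* promoter in the table held no PRDM14 motif and 2 OTX2 motifs. *Kdm4c*, a demethylase of histone H3 lysine 9, was at 17.4, 43.2 and 28.3 CPM in RPG2 and at 53.6 to 131.5 CPM in RPG3 (log2 fold change -1.66, edgeR adjusted p = 0.00908). *Fam111a*, a protease gene linked to DNA replication, was at 2.29 to 11.01 CPM in RPG2 and 24.0 to 58.2 CPM in RPG3 (-2.62, edgeR adjusted p = 0.00847). The median promoter had 13 CpG dinucleotides for genes called higher in RPG3, 16 for those called higher in RPG2 and 20 overall. A motif match is not a binding site, and binding was not measured.

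Across all genes, 51 of 13611 were called higher in RPG2 (0.375%) and 89 higher in RPG3 (0.654%), together 1.03%, at an adjusted p below 0.01 and a natural-log fold change of at least 1. At an adjusted p below 0.05 without a fold minimum the counts were 251 (1.84%) and 334 (2.45%). The median log2 fold change of all genes was -0.05. The RPG2 and RPG3 sums did not overlap for 899 genes (6.6%), with all RPG2 sums lower for 490 (3.6%) and higher for 409 (3.0%), and among the called genes for 46 of 51 and 82 of 89. Median log2 fold changes of the called genes were 2.31 and -3.30. For 38 of the 89 and 11 of the 51 genes the RPG3 sum of day 12 was nearer to RPG2 than any other RPG3 sum. Without it, 103 and 192 genes were called. Sums were also made per batch and day in place of library, with no minimum of cells. RPG2 then had sums of days 12, 14 and 18 and RPG3 of days 12, 18, 20 and 23, and only *Slc25a4* was called.

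**Figure D2:**
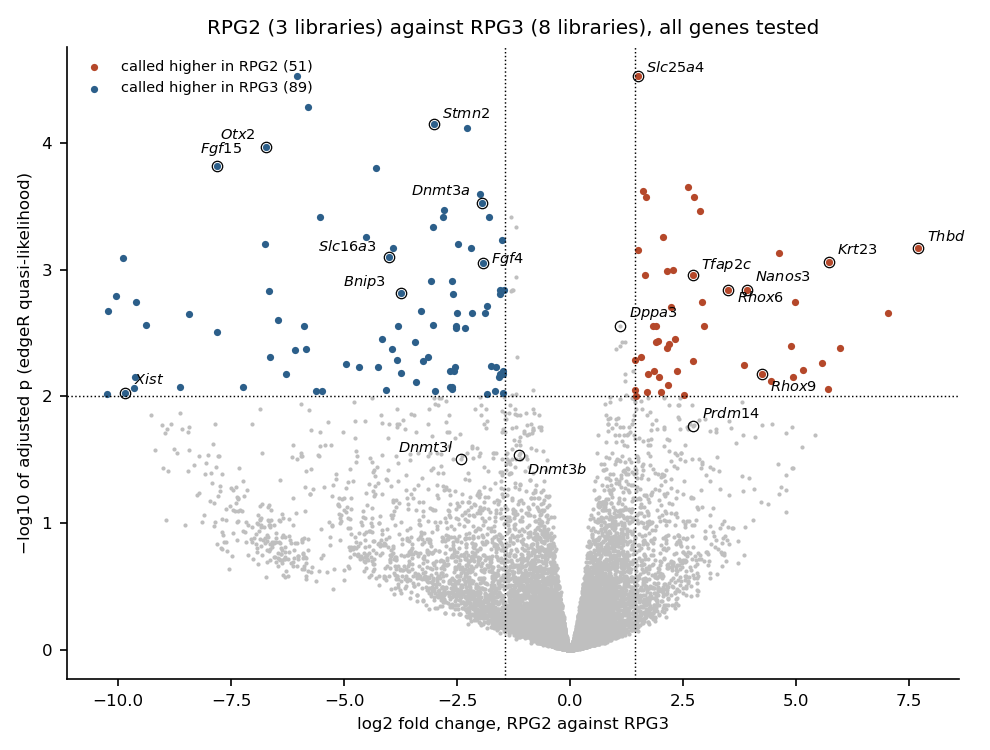
Log2 fold change of RPG2 against RPG3 (x axis) against the −log10 of the edgeR adjusted p (y axis) for the 13611 genes tested, with the thresholds as dotted lines, genes called in red (51) and blue (89) and named genes circled. *Prdm14* lies just under the threshold for p and *Dppa3* left of the threshold for fold, while *Tfap2c*, *Nanos3* and *Otx2* lie beyond both.

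Of the 12 genes listed for primordial germ cell specification, all were tested, 2 were called higher in RPG2 and none higher in RPG3, against 0.375% and 0.654% of all genes, and 6 were higher and 1 lower in RPG2 at an adjusted p below 0.05, against 1.84% and 2.45% of all genes. Their median log2 fold change was 0.75. The second called member beside *Tfap2c* was *Nanos3*, an RNA-binding protein needed for germ cell survival, which was at 182.3, 265.0 and 195.6 CPM in RPG2 and at 1.05 to 43.5 CPM (median 9.88) in RPG3. The highest RPG3 value came from day 12, and the groups stayed apart (log2 fold change 3.91, SE 0.61, edgeR adjusted p = 0.00144). Without the RPG3 sum of day 12 it was 4.29 (edgeR adjusted p = 0.000125). Among members that were not called, *Ifitm1* and *Ifitm3*, interferon-induced membrane proteins of early germ cells, had log2 fold changes of 0.38 and -0.60 (edgeR adjusted p = 0.348 and 0.0541). Of 19 genes that act later in the germline none was called, against 1.03% of all genes. In that list *Dazl*, an RNA-binding germ cell factor, was at 70.9 to 155.2 CPM in RPG2 and 63.6 to 148.1 in RPG3, *Hormad1*, of meiotic chromosome axes, at 6.15 to 54.5 and 22.1 to 95.5, and *Mael*, of the piRNA pathway, at 41.5 to 51.2 and 32.5 to 139.2. All 3 overlapped between the clusters.

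The neighbouring X-linked homeobox genes *Rhox6* and *Rhox9*, expressed in germ cells and placenta, were both called higher in RPG2 and were named after their values were seen. *Rhox6* was at 89.1 and 127.1 CPM in the RPG2 sums of day 12 and day 14 replicate 5, and at 16.7 CPM in day 14 replicate 6, against 3.03 to 13.3 CPM in RPG3. *Rhox9* was at 112.9, 118.1 and 2.46 CPM in the same order, against 0 to 8.82 CPM. Both were thus low in the same RPG2 library, where *Rhox9* overlapped with RPG3. Their log2 fold changes were 3.50 (SE 0.55) and 4.24 (SE 0.82), with edgeR adjusted p of 0.00144 and 0.00667. Without day 14 replicate 5 neither was called (edgeR adjusted p = 0.0219 for *Rhox6* and 0.0461 for *Rhox9*). The 2 genes are close relatives, and how reads common to both were assigned is not given in the sources used here, so their separate values are uncertain. Their relative *Rhox5* was at 337.5 to 490.1 CPM in RPG2 and 200.8 to 902.4 CPM in RPG3, with a log2 fold change of -0.28 (SE 0.31, edgeR adjusted p = 0.688).

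None of the 15 core pluripotency genes was called, against 1.03% of all genes, and their median log2 fold change was -0.00014. At an adjusted p below 0.05, 2 of them were higher in RPG3 and 0 higher in RPG2, against 2.45% and 1.84% of all genes. These were *Dppa5a*, an RNA-binding protein of pluripotent cells, at 363.1 to 955.8 CPM in RPG2 and 963.8 to 1446 CPM in RPG3 (-0.94, edgeR adjusted p = 0.0169), and *Tdgf1*, the Nodal co-receptor Cripto, at 333.9 to 501.7 and 599.4 to 813.9 CPM (-0.65, edgeR adjusted p = 0.0174), and neither overlapped. *Sox2*, at 239.4, 315.1 and 446.2 CPM in RPG2, overlapped with RPG3 at 209.6 to 311.9 CPM (log2 fold change 0.32, SE 0.18, edgeR adjusted p = 0.35), and *Nanog* had a log2 fold change of 0.62 (SE 0.18, edgeR adjusted p = 0.0632). *Pou5f1*, the gene of OCT4, was at 15.2 to 66.6 CPM in RPG2 and 16.9 to 78.1 CPM in RPG3, ranges that held the 32.2 to 52.4 CPM of the gPSC and mES lines. Of 15 genes listed for naive pluripotency, 2 were called higher in RPG3 and none higher in RPG2, against 0.654% and 0.375% of all genes, with a median of 0.59. They were *Fgf4*, which is described with the FGF ligands, and *Zfp57*, a zinc finger protein that maintains methylation at imprints. *Zfp57* was at 68.9, 61.5 and 122.1 CPM in RPG2 and 187.0 to 292.4 CPM in RPG3 (-1.46, SE 0.23, edgeR adjusted p = 0.00144). *Klf2*, a naive transcription factor, had a log2 fold change of 0.98 with overlapping sums (edgeR adjusted p = 0.128), and *Klf5* one of 0.08 (0.914).

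Of 22 genes listed for the formative and primed epiblast, all were tested, 5 were called higher in RPG3 and none higher in RPG2, against the shares of 0.654% and 0.375% of all genes, and the median log2 fold change was -1.81. The 5 were *Otx2*, *Dnmt3a*, *Fgf15*, *Cldn6* and *Sox11*. *Fgf15*, a growth factor ligand of the early epiblast, had 2 UMIs in the whole of RPG2 and 2811 in RPG3, a ratio of 261.1 in depth-scaled counts (exact 95% interval 72.2 to 2157), and was at 15.1 to 77.0 CPM in the RPG3 sums. *Sox11*, a developmental transcription factor, was at 1.28, 14.5 and 2.46 CPM in RPG2 and 27.2 to 85.6 CPM in RPG3 (-3.26, SE 0.61, edgeR adjusted p = 0.00526). *Cldn6*, a tight junction claudin, was at 9.73, 24.1 and 24.1 CPM and 79.2 to 252.0 CPM (-3.04, SE 0.41, edgeR adjusted p = 0.00046). It was also the only called gene of the 14 epithelial junction genes, of which 13 had negative fold changes. In the scTrio-seq2 cells described further on, 6 of 8 such genes tested had positive fold changes (median 0.31), and *Cldn6* one of 0.14.

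Other genes of the formative list differed less evenly between libraries. *Fgf5*, a ligand that marks the primed epiblast, fell within the RPG3 range of 9.38 to 66.7 CPM in the RPG2 sum of day 12, at 16.9 CPM, and was at 5.79 and 0 in those of day 14 (-2.04, SE 0.88, edgeR adjusted p = 0.208). *Lef1*, a nuclear effector of Wnt signals, was at 35.9 CPM in the RPG2 sum of day 12 and at 0.723 and 0 in those of day 14, against 51.0 to 106.4 CPM in RPG3 (-2.63, SE 0.90, edgeR adjusted p = 0.106). In both genes the RPG2 sum of day 12 was the one nearest to RPG3. *Pou3f1* (OCT6) was at 49.4, 7.47 and 52.2 CPM in RPG2 and 56.5 to 163.4 CPM in RPG3, without overlap (-1.41, SE 0.47, edgeR adjusted p = 0.0959). *Eomes*, a T-box factor, overlapped at 0.655 to 3.33 and 2.91 to 14.1 CPM.

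In the FGF and ERK list 2 of 17 genes tested were called, both of them ligands higher in RPG3, against 0.654% of all genes. Beside *Fgf15* it was *Fgf4*, the autocrine ligand that starts the exit from naive pluripotency, at 39.7, 26.04 and 45.0 CPM in RPG2 and 94.8 to 214.3 CPM in RPG3 (-1.93, SE 0.29, edgeR adjusted p = 0.00089). Target genes of the pathway were not called. *Dusp6*, a phosphatase induced by ERK, had a log2 fold change of 0.002 (SE 0.23), *Etv5* one of -0.13 (SE 0.17) and *Etv4* one of 0.79 (SE 0.27), with edgeR adjusted p of 0.998, 0.736 and 0.103. None of 14 Nodal, 13 Wnt and 13 BMP pathway genes tested was called, against 1.03% of all genes, with medians of 0.51, 0.53 and 0.05. At an edgeR adjusted p below 0.05, 2 Nodal genes were higher in RPG3 and 1 BMP gene was higher in RPG2. The shares of all genes were 2.45% and 1.84%. The BMP ligand *Bmp4* overlapped, with 130.6, 61.5 and 183.8 CPM in RPG2 and 33.6 to 154.1 CPM in RPG3. *Id3*, a target of BMP signals, was at 326.5, 629.3 and 568.3 CPM in RPG2 and 135.7 to 350.8 CPM in RPG3 (1.11, SE 0.25, edgeR adjusted p = 0.0175), whereas *Id1* had a log2 fold change of 0.05 (SE 0.36).

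Among 10 writers and erasers of DNA methylation, *Dnmt3a*, a de novo methyltransferase, was the only called gene, against 0.654% of all genes called higher in RPG3. It was at 86.6, 68.7 and 61.6 CPM in RPG2 and 177.1 to 461.6 CPM (median 264.7) in RPG3 (-1.95, SE 0.25, edgeR adjusted p = 0.0003). The sums did not overlap, and the lowest RPG3 value was that of day 12. Its partner *Dnmt3b* was at 182.3, 76.7 and 305.8 CPM in RPG2 and 310.3 to 549.9 CPM in RPG3 (-1.13, SE 0.28, edgeR adjusted p = 0.029). *Dnmt3l*, the cofactor without catalytic activity, was at 61.2, 2.41 and 188.7 CPM and 370.9 to 541.9 CPM (-2.42, SE 0.62, edgeR adjusted p = 0.0308), and was called when day 14 replicate 5 or day 14 replicate 6 was left out. These 2 genes did not overlap between clusters but varied widely within RPG2, with day 14 replicate 5 lowest and day 14 replicate 6 highest in both. *Tet1*, which oxidises methylcytosine, overlapped at 314.7 to 369.1 and 307.4 to 477.4 CPM (-0.19, SE 0.16). None of the 12 PRDM14 partners and repressive chromatin genes was called, against 1.03% of all genes. *Ezh2* and *Eed* of Polycomb complex PRC2 and the arginine methyltransferase *Prmt5* had log2 fold changes of 0.15, 0.21 and -0.27.

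**Figure D3:**
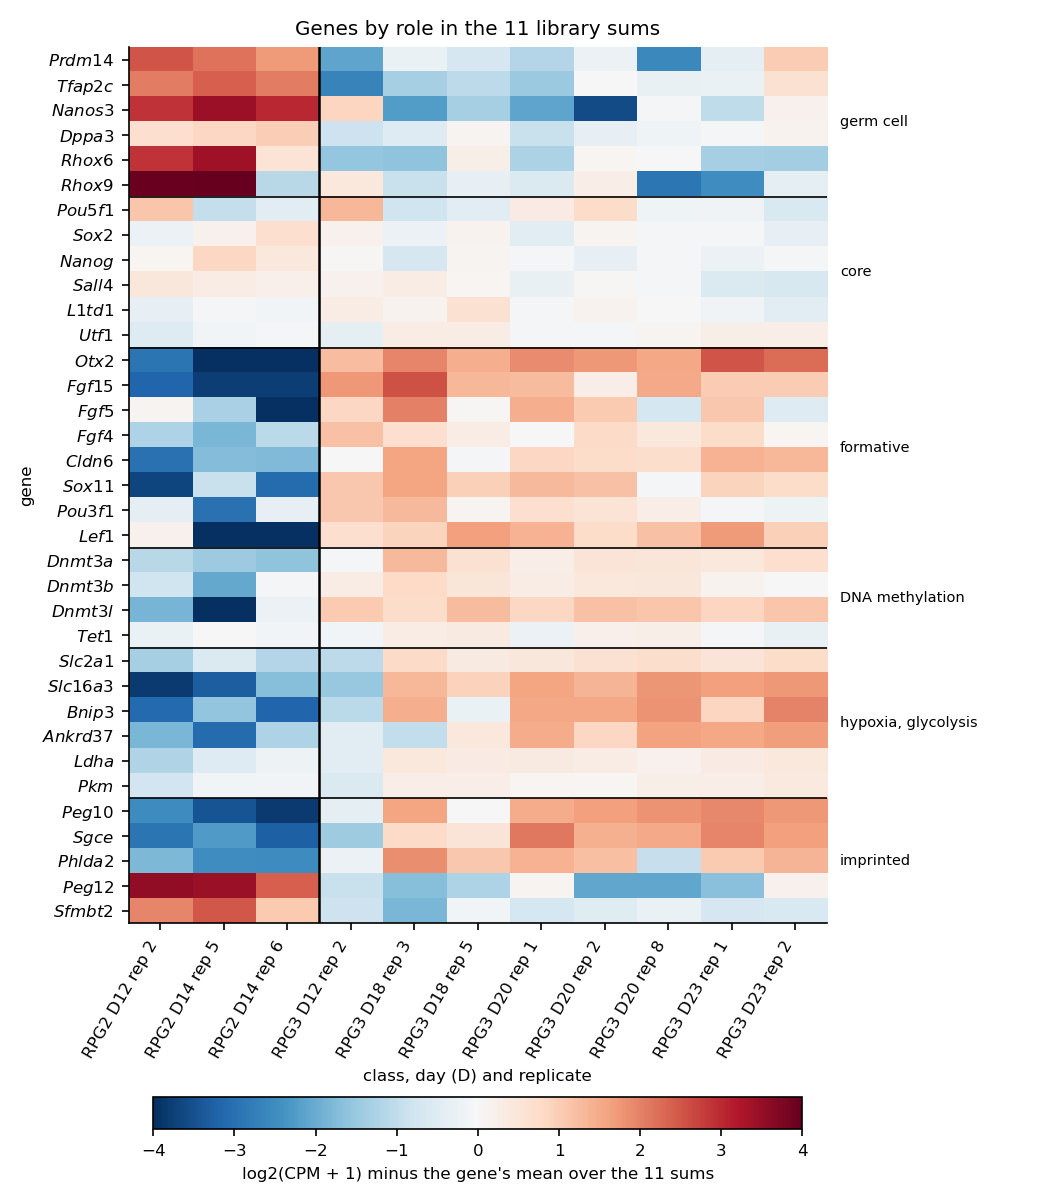
Levels of 35 genes by role in the 3 RPG2 and 8 RPG3 sums, as log2(CPM + 1) minus the gene's mean over the 11 sums (colour scale from -4, blue, to 4, red; values beyond are drawn at the ends). The germ cell genes are red in RPG2 except *Rhox9* in day 14 replicate 6, the formative genes are mostly blue there, the core genes are pale throughout, and the hypoxia genes of the RPG3 sum of day 12 are pale or blue as in RPG2.

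Of 12 genes of hypoxia and glucose transport, 3 were called higher in RPG3 and none higher in RPG2, against 0.654% and 0.375% of all genes, with a median of -1.17. The other 9 were not called, among them *Hif1a*, the oxygen-regulated transcription factor subunit (-0.04), and the glucose transporter *Slc2a3* (-0.43). *Slc2a1*, the glucose transporter GLUT1, was at 144.7, 241.8 and 159.3 CPM in RPG2 and at 175.8 to 618.7 CPM in RPG3. The sums overlapped, because the RPG3 sum of day 12 was at 175.8 CPM while the other 7 were at 470.5 or more (log2 fold change -1.48, SE 0.29, edgeR adjusted p = 0.00667). *Bnip3*, a mitophagy receptor induced by hypoxia, was at 16.4, 49.4 and 15.6 CPM in RPG2, and in RPG3 at 69.9 CPM on day 12 and at 124.9 to 587.2 CPM in the other sums (-3.73, SE 0.59, edgeR adjusted p = 0.00152). *Slc16a3*, the lactate exporter MCT4, which is in no list and was named after its values were seen, was at 8.20, 12.3 and 38.8 CPM in RPG2, at 44.7 CPM in the RPG3 sum of day 12 and at 243.7 to 436.8 CPM in the rest (-4.01, SE 0.59, edgeR adjusted p = 0.000798). For all 3 genes the RPG3 cells of day 12 were nearer to RPG2 than to later RPG3 cells. *Ankrd37*, a further hypoxia target, was also called (-2.99, SE 0.60, edgeR adjusted p = 0.00898). Of 18 glycolytic enzymes none was called, against 1.03% of all genes, 16 had negative fold changes and the median was -0.61. Of all 13611 genes, 6372 had positive ones. At an edgeR adjusted p below 0.05, 5 of the 18 were higher in RPG3 and 0 higher in RPG2, against 2.45% and 1.84% of all genes. *Ldha* had a log2 fold change of -0.84 (edgeR adjusted p = 0.0193) and *Pkm* one of -0.44 (0.179), both with their lowest RPG3 value on day 12. All RPG2 sums came from day 14 or earlier, so that across libraries the cluster and the day of collection cannot be told apart for these genes. Without the RPG3 sum of day 12, *Slc2a1* (-1.60), *Bnip3* (-3.89), *Slc16a3* (-4.17) and *Ankrd37* (-3.11) were called as before, with edgeR adjusted p of 3.28e-05, 8.01e-05, 1.49e-05 and 0.00183, and *Ldha* (-0.92) and *Pkm* (-0.52) had edgeR adjusted p of 0.00253 and 0.0356.

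Imprinted genes, expressed from 1 parental allele, gave 3 calls in RPG3 and none in RPG2 out of 17 tested, against 0.654% and 0.375% of all genes, with a median of -0.69. *Peg10* and *Sgce*, neighbours that are both expressed from the paternal allele, were at 0.327 to 2.31 and 0 to 0.964 CPM in RPG2 and at 13.2 to 71.0 and 2.52 to 39.7 CPM in RPG3. *Phlda2*, expressed from the maternal allele and a brake on placental growth, was at 1.15 to 2.56 CPM in RPG2 and 5.50 to 43.9 CPM in RPG3. Log2 fold changes were -5.53, -5.90 and -3.93, with edgeR adjusted p of 0.000384, 0.00277 and 0.00422. Outside the list, *Peg12*, an intronless imprinted gene, was at 48.9, 44.8 and 21.3 CPM in RPG2 and at most 3.76 CPM in RPG3, and *Sfmbt2*, a Polycomb gene imprinted in the placenta, at 174.4, 252.7 and 91.3 CPM and 11.6 to 40.7 CPM. Both were named after their values were seen. Abundant members such as *Peg3* and *Snrpn* had log2 fold changes of -0.62 and -0.58 and overlapped or were not called (edgeR adjusted p = 0.224 and 0.114).

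The X chromosome carried 4 of the 48 genes called higher in RPG2 that had a position, *Fhl1*, *Hmgn5*, *Rhox6* and *Rhox9*, all named for their position after the calls were known, and 6 of the 81 called higher in RPG3, against 446 of 12791 genes tested (3.49%). One of the 6 was *Xist*, the RNA that silences an X chromosome, named after its values were seen, which had no UMI in RPG2 and 1274 in RPG3, so that it was at least 78.9-fold higher against a limit of 3 UMIs over the whole of RPG2. It was at 0 in the RPG3 sum of day 12 as well, and at 3.56 to 35.99 CPM in the other 7 RPG3 sums.

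By the rule for genes called both across all libraries and within batch B2, 2 genes led, *Tfap2c* and *S100a6*, a calcium-binding protein. *S100a6* was at 301.9, 199.6 and 206.1 CPM in RPG2 and 26.6 to 149.4 CPM (median 48.1) in RPG3 (log2 fold change 1.96, SE 0.38, edgeR adjusted p = 0.00707), the highest RPG3 value again being that of day 23 replicate 2. Further genes were named after their values were seen. *Slc25a4*, the mitochondrial ADP/ATP carrier, was at 830.0 to 896.9 CPM in RPG2 and 245.3 to 417.6 CPM in RPG3 (1.501, SE 0.14, edgeR adjusted p = 2.97e-05). *Krt23*, a keratin, was at 42.9 to 68.4 CPM and 0.0722 to 4.20 CPM, *Mpped2*, a phosphodiesterase, at 95.2 to 132.6 and 10.3 to 33.7 CPM, and *Afap1*, an actin-binding adaptor, at 51.2 to 79.6 and 4.33 to 14.2 CPM. In the other direction *Stmn2*, a microtubule-destabilising stathmin best known from neurons, was at 20.3 to 72.5 CPM in RPG2 and 290.4 to 590.7 CPM in RPG3 (-3.01, SE 0.32, edgeR adjusted p = 7.17e-05). *Lncenc1*, a noncoding RNA of naive embryonic stem cells, was at 1.69 to 5.73 and 27.2 to 109.7 CPM, and *Igfbp2*, which binds insulin-like growth factors, at 115.5 to 187.8 and 269.7 to 720.9 CPM. None of these genes overlapped between the clusters.

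The calls were not equally firm. Leaving out any 1 of the 10 libraries ended none of the calls of *Tfap2c*, *Nanos3*, *Otx2*, *Fgf15*, *Fgf4*, *Cldn6*, *Dnmt3a*, *Bnip3*, *Slc16a3*, *Peg10*, *Sfmbt2*, *Stmn2*, *Slc25a4*, *Krt23*, *Mpped2*, *Afap1*, *Lncenc1*, *Igfbp2* and *Pitpnc1*. The call of *Slc2a1* ended with each of the 10 libraries in turn (edgeR adjusted p up to 0.0267). Without day 12 replicate 2 its edgeR adjusted p was smaller, 0.000198, and only the log2 fold change of -1.44 fell just short of the minimum. The calls of *S100a6*, *Thy1*, *Kdm4c*, *Xist*, *Ankrd37* and *Fam111a* ended with 8 or 9 of the libraries (edgeR adjusted p up to 0.0479). *Rhox9* and *Calca* were lost with 7 of the libraries, *Sox11* with 6, *Zfp57* with 4 (with all but day 14 replicate 5 by the fold minimum alone), *Peg12* with day 12 replicate 2, day 14 replicate 5 and day 18 replicate 5, and *Phlda2* with day 14 replicates 5 and 6 and day 18 replicate 3. *Rhox6* and *Ppp1r1a* were lost with day 14 replicate 5 alone, and *Sgce* with day 14 replicate 6 alone.

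The study had listed target genes of Otx2 and of Prdm14 on these samples, so that neither list is independent evidence of a direction. Of 52 Otx2 targets, 8 were called higher in RPG3 and none higher in RPG2, against 0.654% and 0.375% of all genes, the median was -0.95, and 2 had a positive fold change. The 8 were *Otx2* itself, *Dnmt3a*, *Sgk1*, *Palld*, *Ankrd37*, *Pitpnc1*, *Ppp1r1a* and *Calca*. *Calca*, the gene of calcitonin and its related peptide, was at 0, 9.89 and 0.491 CPM in RPG2 and 14.5 to 126.9 CPM in RPG3, *Pitpnc1*, a phosphatidylinositol transfer protein, at 5.38 to 24.8 and 63.0 to 107.8 CPM, and *Ppp1r1a*, a phosphatase inhibitor, at 6.03 to 24.3 and 54.6 to 98.5 CPM. Of 42 Prdm14 targets, *Nanos3* was called higher in RPG2 and *Dnmt3a* higher in RPG3, against the same shares of all genes, 20 of the 42 had positive fold changes, and the median was -0.01. The Prdm14 targets as a group thus lay at the median of all genes, -0.05, whereas the Otx2 targets lay below it.

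The part of other cell types in the results was not tested, and the levels of their markers were as follows. Of 12 fibroblast (feeder) markers 5 were expressed highly enough to be tested. Their summed level was 4.10 to 11.6 CPM in RPG2 and 13.9 to 42.4 CPM in RPG3, *Thy1* was called higher in RPG3, at 7.65 to 20.8 CPM there, and *Col5a2*, *Lum*, *Dcn* and *Acta2* were at 0 in RPG2. Primitive endoderm markers summed to 26.1, 21.2 and 93.1 CPM in RPG2, above the 8.36 to 17.5 CPM of RPG3. The highest sum, of day 14 replicate 6, held 63.7 CPM of *Gata6*, a primitive endoderm factor that was at 0 in the other RPG2 sums. *Lama1*, a laminin chain, was at 14.9 to 21.1 CPM in RPG2 and 0.323 to 9.81 CPM in RPG3 (1.73, edgeR adjusted p = 0.157), while *Gata4*, *Sox7* and *Dab2* were among those at 0 in RPG2. Neural markers summed to 76.8 to 98.6 and 46.9 to 83.8 CPM. The highest RPG3 sum was that of day 12, which held 35.3 CPM of *Sox1*, a neural factor at 0 in the other 7 RPG3 sums. *Tubb3*, a tubulin of neurons, was at 54.8 to 76.1 CPM in RPG2 and 17.9 to 55.3 CPM in RPG3 (1.21, edgeR adjusted p = 0.0528), and *Pax6* and *Neurog2* were among those at 0 in RPG2. Sums were 4.75 to 10.8 and 8.19 to 30.4 CPM for trophectoderm and 5.24 to 23.1 and 9.19 to 62.4 CPM for mesendoderm markers, with *Cdx2* and *Plac1* at 0 in both clusters, and none of the 2-cell-like markers reached the filter. SSC self-renewal genes summed to 650.5 to 786.7 and 601.9 to 904.9 CPM, and of 15 genes of G1 control none was called, against 1.03% of all genes. No other member of these lists was called.

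Within batch B2, 3 RPG2 sums were compared with the 3 RPG3 sums of days 12 and 18. Of 11523 genes tested, 2 were called higher in RPG2 (0.0174%), *Tfap2c* (log2 fold change 3.72, SE 0.40, edgeR adjusted p = 0.00569) and *S100a6* (2.68, SE 0.32, edgeR adjusted p = 0.00907), and 0 higher in RPG3. Neither was called without day 12 replicate 2 or without day 14 replicate 5 (edgeR adjusted p of *Tfap2c* 0.0234 and 0.0417, of *S100a6* 0.0863 and 0.0417), and *S100a6* was not called without day 18 replicate 3 either (edgeR adjusted p = 0.0284). When only the RPG3 sum of day 12 was left out, *S100a6* was not called within the batch (2.67, edgeR adjusted p = 0.0244). *Tfap2c* (3.43), *Nanos3* (5.055) and *Krt23* (8.58) were called there, with edgeR adjusted p of 0.00245, 0.00245 and 0.0025. At an unadjusted p below 0.05 there were 1098 genes in the batch comparison, and DESeq2 called 70 and 97. *Otx2* had a log2 fold change of -6.36 (SE 1.05, edgeR adjusted p = 0.0214), *Prdm14* one of 3.16 (SE 0.73, edgeR adjusted p = 0.0835) and *Dppa3* one of 1.21 (SE 0.25, edgeR adjusted p = 0.058). *Dnmt3a* (-2.09), *Fgf15* (-8.28), *Fgf4* (-2.12), *Stmn2* (-2.99) and *Nanos3* (3.67) had edgeR adjusted p between 0.0124 and 0.0394. Over the 50 and 80 called genes that could be tested, the median log2 fold change was 2.53 and -2.88, and 16 and 20 had an adjusted p below 0.05. Counts of all genes below this p in the batch are given with the processing alternatives. The batch comparison reused the RPG2 sums and part of the RPG3 sums on which these genes were called, so that it is no independent repeat. Of the hypoxia genes, *Bnip3* was at -2.90, *Ankrd37* at -1.72 and *Slc2a1* at -1.21 within the batch (edgeR adjusted p = 0.0712, 0.44 and 0.234), and the median of the list was -1.01.

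Only day 12 replicate 2 and day 18 replicate 5 held cells of both clusters, the latter with 2 RPG2 cells. With the library as a block over these 2 libraries, an alternative chosen after seeing the data that leaves 1 residual degree of freedom, 20 and 16 of 10252 genes were called. Of the 45 named genes called across all libraries, 39 could be tested, 6 were called again and 33 were not. *Tfap2c* (3.80, edgeR adjusted p = 4.33e-09) and *Otx2* (-4.03, edgeR adjusted p = 1.16e-05) were among the 6, with *Fgf4*, *S100a6*, *Slc25a4* and *Stmn2*. *Dnmt3l* (-1.51, edgeR adjusted p = 5.82e-10) and *Klf2* (1.53, edgeR adjusted p = 0.0046) were called here but not across all libraries. *Prdm14* was at 3.38 (edgeR adjusted p = 0.531) and was not called, and *Dnmt3a* (-1.28), *Nanos3* (2.24), *Cldn6* (-1.95) and *Fgf15* (-5.625) were not called either (edgeR adjusted p = 0.0213, 0.0429, 0.375 and 0.126). Nor were *Rhox9* (1.18), *Rhox6* (3.601), *Peg10* (-3.03), *Sfmbt2* (1.97), *Igfbp2* (-0.65), *Lncenc1* (-2.40), *Mpped2* (2.38) and *Afap1* (2.84), with edgeR adjusted p from 0.0235 for *Rhox6* to 0.983 for *Rhox9*. Of the genes of hypoxia and of glucose or lactate transport, *Slc2a1* was at -0.15, *Bnip3* at -1.23, *Slc16a3* at -1.72, *Ankrd37* at 0.31, *Hif1a* at 0.82 and *Slc2a3* at 0.18, and none was called (edgeR adjusted p from 0.0556 for *Slc16a3* to 0.9996 for *Ankrd37*). P-values with so few sums rest mainly on the spread shared across genes.

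A second set of cells came from the RNA arm of scTrio-seq2, where SSCs had been treated with 5C, a mixture of 5 chemicals, or with its solvent DMSO, and where the study had assigned cells to the clusters with the classifier scPred. The study trained the classifier on its STRT-seq cells of the original condition, and the assignment used expression. Neither the markers nor other genes that separate the STRT-seq clusters are thus an independent test here. At least 5 cells of both classes were present in 4 libraries, 5C replicates 1, 7 and 8 and DMSO replicate 2, with 28 RPG2 and 142 RPG3 cells. Each library was compared within itself, and 1 gene was called higher in RPG2 (0.0114%) and 11 higher in RPG3 (0.126%) of 8748 tested. The gene higher in RPG2 was *Rhox9*, at 94.0, 43.3, 24.5 and 167.4 CPM in RPG2 and 8.89, 3.87, 2.05 and 0 CPM in RPG3 of the same libraries (log2 fold change 4.49, SE 0.82, edgeR adjusted p = 0.00852), and it was not called without 5C replicate 1 or without DMSO replicate 2 (edgeR adjusted p up to 0.0339). It was higher in 4 of 4 libraries, as was *Rhox6* (3.25, SE 0.71, edgeR adjusted p = 0.04).

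Of 9 writers and erasers of DNA methylation tested in these cells, 3 were called higher in RPG3, against 0.126% of all genes. *Dnmt3a* was at 36.2, 85.3, 40.2 and 52.6 CPM in RPG2 and at 173.8, 187.1, 165.8 and 193.8 CPM in RPG3 (-1.82, SE 0.30, edgeR adjusted p = 0.00403). *Dnmt3b* (-1.71, SE 0.24) and *Dnmt3l* (-2.31, SE 0.33) both had an edgeR adjusted p of 0.000833, and both were higher in RPG3 in 4 of 4 libraries. *Stmn2* was called as well (-2.67, SE 0.45, edgeR adjusted p = 0.00439), as were *Nr0b1*, an orphan nuclear receptor of pluripotent cells (-2.20), *Hspb1*, a small heat shock protein (-1.96), and *Trh*, the precursor of thyrotropin-releasing hormone (-1.46). Calls in these cells rested in part on the DMSO library, without which 1 gene was called in each direction, *Khdc3* and *Trh*, and *Dnmt3a*, *Dnmt3b* and *Dnmt3l* had edgeR adjusted p of 0.0339, 0.00361 and 0.0339, with *Dnmt3b* under the fold minimum. *Dnmt3a* was not called without 5C replicate 1 either (edgeR adjusted p = 0.0480), nor were *Hspb1* and *Trh*. The call of *Trh* also ended without 5C replicate 8, in both cases by the fold minimum alone. The remaining 4 were *F2rl1*, *Fam25c*, *Gm26707* and *1700097N02Rik*, and these, *Hspb1*, *Trh* and *Khdc3* were named after their values were seen. In STRT-seq the fold changes of *Nr0b1* (-0.39) and *Trh* (-0.78) were smaller and not called (edgeR adjusted p = 0.508 and 0.219).

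*Otx2* did not separate the predicted classes in the same way. It was at 7.36, 73.9, 2.23 and 248.8 CPM in RPG2 and at 41.2, 10.8, 10.2 and 321.1 CPM in RPG3, with a log2 fold change of -0.28 (SE 0.59, edgeR adjusted p = 0.983). RPG3 cells of the 5C libraries were thus at 10.2 to 41.2 CPM, where the single DMSO library was at 321.1 CPM, and in 5C replicate 7 RPG2 was above RPG3. *Prdm14* was higher in RPG2 in 4 of 4 libraries, at 33.5 to 57.2 against 9.35 to 24.1 CPM (1.47, SE 0.57, edgeR adjusted p = 0.599). *Tfap2c* was at 246.3, 165.6, 214.2 and 119.6 CPM in RPG2 and 87.5, 174.6, 131.0 and 34.1 CPM in RPG3, so that it was higher in RPG2 in 3 of 4 libraries (0.95, SE 0.29, edgeR adjusted p = 0.286). *Bnip3* had a log2 fold change of 0.29 (SE 0.52) and *Slc2a1* one of -0.39 (SE 0.28), and neither was called. The column names of these libraries give days 12, 12 and 16 for 5C and day 20 for DMSO, so that treatment and day cannot be told apart.

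Of the genes called in STRT-seq, 94 were tested in scTrio-seq2 and 79 (84.0%) differed in the same direction, against 5000 of the 8746 genes tested in both (57.2%). Of the 40 higher in RPG2, 31 had the same direction, with a median of 0.66, and of the 54 higher in RPG3, 48 did, with a median of -0.73. Of all 8748 genes tested in scTrio-seq2, 3388 had a positive fold change. Since the classifier was trained on the STRT-seq clusters, a shared direction is partly built in and is a description only. The number called in both was 1 and 3.

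**Figure D4:**
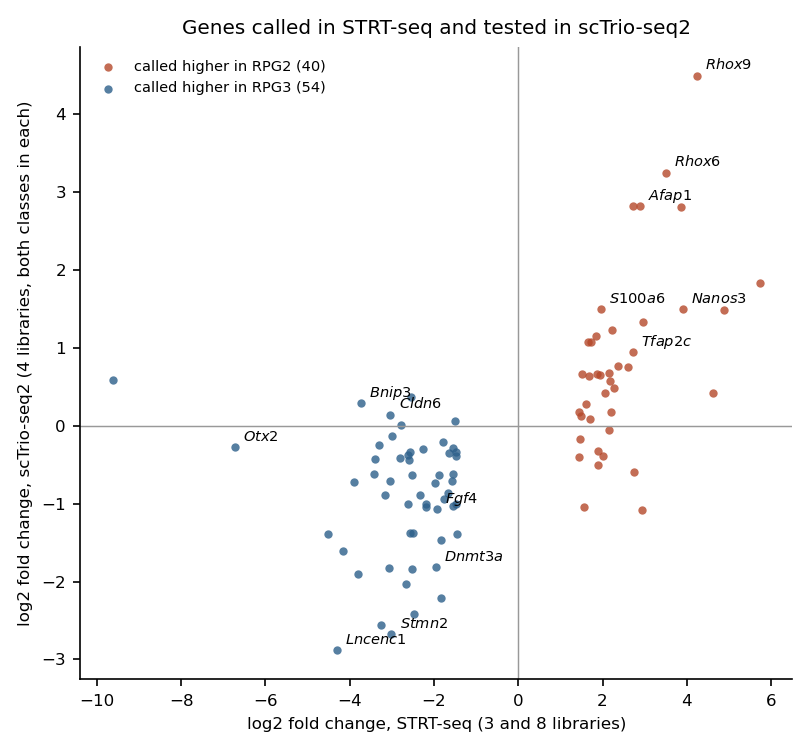
Log2 fold change of RPG2 against RPG3 in STRT-seq (x axis, 3 and 8 library sums) and in scTrio-seq2 (y axis, 4 libraries with both classes) for the 94 genes called in STRT-seq and tested in both, in red those higher in RPG2 (40) and in blue those higher in RPG3 (54). Most points lie in the lower left and upper right, *Rhox9* and *Rhox6* are highest on the y axis, and *Otx2* lies near 0 on it.

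Beside the other classes of the study, with 36 SSC, 7 RPG1, 3 early-pluripotent and 2 RPG4 sums and 1 library per line, the markers fell into different orders. *Tfap2c* was at 227.2 CPM ± 32.3 (SD, n = 3) in RPG2, above the range of every other class, with 13.7 ± 5.23 (n = 7) in RPG1, 34.1 ± 22.3 (n = 8) in RPG3, 1.79 in RPG4 and 32.4, 67.9 and 55.9 in gPSC P1, gPSC P15 and mES. The SSC range, up to 55.2 CPM, overlapped with that of RPG3. *Prdm14* was at 42.7 CPM ± 11.9 (SD, n = 3) in RPG2, between the lines at 27.2 (gPSC P1), 70.2 (mES) and 85.7 (gPSC P15), and at most 3.56 in any SSC, RPG1, early-pluripotent or RPG4 sum. *Nanos3* was as high in SSCs (176.2 ± 58.8, n = 36) as in RPG2 (214.3 ± 44.4, n = 3), lower in RPG1 (59.3 ± 25.98, n = 7) and lower again in RPG3 (15.3 ± 14.5, n = 8). The 3 RPG2 values of *Nanos3* lay within the SSC range of 82.7 to 346.9 CPM and above the RPG1 range of 29.99 to 108.8.

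*Otx2* reached 203.6 CPM ± 62.3 (SD, n = 8) in RPG3 and 104.5 in RPG4, and was at most 11.2 CPM in every sum of the other classes and in the lines. *Fgf15* followed it, with 36.3 ± 18.5 in RPG3, 6.83 and 31.6 in the 2 RPG4 sums and at most 4.26 elsewhere. *Dnmt3a* was at 72.3 ± 12.9 CPM (n = 3) in RPG2, near the lines (47.0 to 66.2), with 2 of its 3 sums below the SSC range of 79.9 to 229.3 CPM, against 127.2 ± 36.4 (n = 36) in SSCs and 278.7 ± 83.0 (n = 8) in RPG3. *Dnmt3l* was high in RPG3 (453.9 ± 58.5, n = 8) and in gPSC P1 (216.0), and low in RPG4 (15.8), where *Dnmt3b* stayed at 453.8. *Rhox6* and *Rhox9* were at 77.6 ± 56.1 and 77.8 ± 65.3 CPM in RPG2 and at most 17.2 and 34.5 in any sum or line outside RPG2. These levels are a description over libraries of unequal cell number, and with 1 library per line no test was possible.

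**Figure D5:**
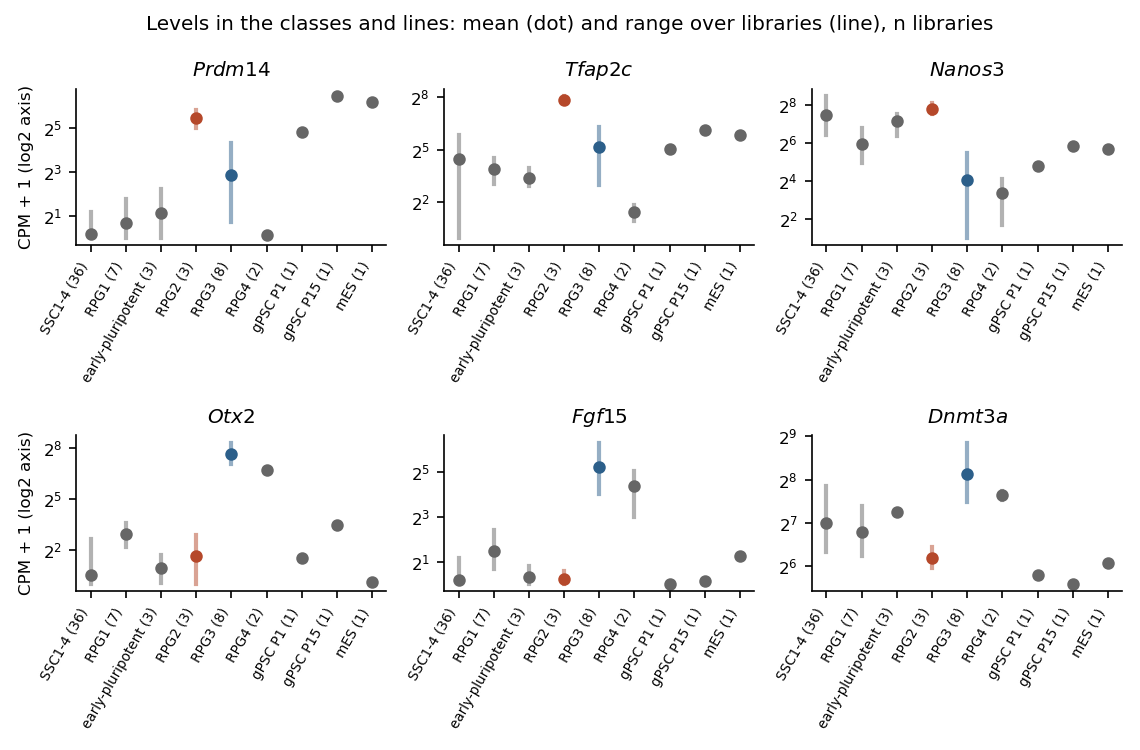
Levels of 6 genes in the classes and lines as CPM + 1 on a log2 axis, with dots for means and lines for the range over libraries (number of libraries in brackets; RPG2 red, RPG3 blue). *Tfap2c* peaks in RPG2 and *Otx2* and *Fgf15* in RPG3 and RPG4, while *Nanos3* is as high in SSC1-4 as in RPG2 and *Dnmt3a* is lower in RPG2 than in RPG3.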

How the data were processed

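Modified STRT-seq and the RNA arm of scTrio-seq2 were used as deposited by the authors, as UMI counts, not normalized, for each gene in each cell. The study's methods state that UMI-tools extracted barcodes, that STAR 2.7.2b aligned reads to mm10 and featureCounts 2.0.0 assigned them to genes (versions from the submitters' processing notes), that cells with few genes or many mitochondrial reads were removed, and that clusters came from Seurat. The authors also deposited the cell annotation with cluster, library and batch. scPred classes of the scTrio-seq2 cells came from the study's supplementary list of cells. UMI-tools collapses PCR copies, so counts are molecules and not reads.

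For each class, counts were added up within libraries holding 5 or more of its cells, giving 3 and 8 sums of 1570976 to 17474953 UMIs. Genes passing filterByExpr were tested with edgeR 4.0.16 (TMM, glmQLFit, glmQLFTest) in R 4.3.3, without a covariate in STRT-seq and with the library as a block in scTrio-seq2, where both classes came from the same library. A call needed a Benjamini-Hochberg adjusted p below 0.01 over all genes tested and a fold change of 1 or more in size on the natural-log scale. SEs are derived from the F statistic. The script was tested on simulated data. Alternatives were DESeq2 1.42.0, RLE size factors, other filters, thresholds and cell minimums, thinned cells, sums per batch and day, batch B1 only, no block, and each library left out. Intervals of shares are exact binomial (Clopper-Pearson) at 95%, and the fold against a count of 0 uses a limit of 3 UMIs over the class. All cover counting error only. Promoter coordinates are GRCm38.p6.

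Named genes were the 4 markers, genes the study names for these clusters, from each of 25 lists up to 5 called members per direction and 3 members not called, and up to 8 genes per direction called across libraries and again within batch B2 without overlap and with at least 20 CPM in the higher class, which 2 genes met, while others are marked as named after their values were seen. The members and lists were chosen with earlier results of these data known. Methylation calls were not used here, and other classes only for the levels given.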

Additional observations from a re-analysis of the deposited data

Results flagged for a closer look

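In RPG3, with 8 sums, a single library lay far from the others for 15 of the 116 genes examined. Some of these genes were named after their values were seen, several flags fell on the same library, and *Wnt7b* and *Thbd* were at low levels. The count was therefore not set against chance. The causes were not tested.

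The RPG3 sum of day 12 replicate 2 was the lowest for *Slc2a1* (175.8 CPM, the others at 470.5 to 618.7), *Ldha* (665.5, others 1029 to 1220) and *Pkm* (705.2, others 1115 to 1390), and the highest for *Mcf2*, a guanine nucleotide exchange factor (61.8, others 8.48 to 26.4), and for *Wnt7b*, a Wnt ligand (1.26, others 0 to 0.582). The sum of day 23 replicate 2 was the highest for *Prdm14* (18.8 CPM, others 0.647 to 7.32), *S100a6* (149.4, others 26.6 to 78.2) and *Hand1*, listed as a trophectoderm marker (9.79, others 0 to 1.73). In RPG2 the lowest sums of *Prdm14* and *S100a6*, 30.8 and 199.6 CPM, were above these values.

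Day 18 replicate 3 was the highest for *Dnmt3a* (461.6 CPM, others 177.1 to 299.5) and *Fgf15* (77.0, others 15.1 to 43.5). Day 18 replicate 5 was the highest for *Tubb3* (55.3, others 17.9 to 32.1), *Mpped2* (33.7, others 10.3 to 20.1) and *Slc25a4* (417.6, others 245.3 to 323.7). Day 20 replicate 8, with 10 RPG3 cells, was the highest for *Lhx1*, a head organiser factor (45.9 CPM, others 1.48 to 8.31). Day 23 replicate 1 was the highest for *Thbd*, the thrombomodulin gene (0.333, others 0 to 0.116), which was at 3.11 to 36.1 CPM in RPG2. *Mcf2*, *Wnt7b*, *Thbd*, *Mpped2* and *Slc25a4* were named after their values were seen.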

How the results depend on the processing

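Over named genes and alternatives, 2272 values across all libraries kept their side of the threshold, 212 were no longer past it, 36 newly past it and 2 changed direction, with 1109, 6 and 99 within batch B2 and 944, 34 and 17 in scTrio-seq2. In the comparison of all libraries, 51 genes were called higher in RPG2 and 89 in RPG3. The counts were 156 and 392 with DESeq2, 251 and 334 at an adjusted p below 0.05 without a fold minimum, 97 and 196 with cells thinned to 100000 UMIs, 103 and 192 without the RPG3 sum of day 12 (chosen after seeing the data), 72 and 146 against RPG3 of batch B1 only, 59 and 136 with at least 10 cells per library, and 1 and 0 with sums per batch and day. In that last setting the few RPG2 cells of day 18 formed a sum of their own. Leaving out single libraries gave 24 to 59 and 43 to 136 (lowest without day 14 replicate 5, highest without day 12 replicate 2), with 33 higher in RPG2 without day 18 replicate 3 or replicate 5 and 59 higher in RPG3 without day 20 replicate 1 or replicate 2.

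Within batch B2 the counts were 2 and 0, with DESeq2 70 and 97, at an adjusted p below 0.05 23 and 21, without a filter 72 and 102, and leaving out single libraries 0 to 8 and 0 to 4 (none higher in RPG2 without day 12 replicate 2 or day 14 replicate 5, 8 and 4 without day 18 replicate 5, 4 and 4 without day 14 replicate 6, 1 and 1 without day 18 replicate 3). Without the RPG3 sum of day 12 the batch gave 3 and 0, with *Tfap2c*, *Nanos3* and *Krt23* called and *S100a6* no longer called. In scTrio-seq2 they were 1 and 11, with DESeq2 6 and 12, at an adjusted p below 0.05 4 and 20, without a filter 5 and 27, with RLE size factors 1 and 7, in the 5C libraries alone 1 and 1, and leaving out single libraries 0 to 4 and 1 to 18 (0 and 6 without 5C replicate 1, 4 and 18 without 5C replicate 7, 3 and 17 without 5C replicate 8, 1 and 1 without DMSO replicate 2). Without the library as a replicate block, that is unpaired, 0 and 0 genes were called there. In STRT-seq the planned block over libraries with at least 5 cells of both clusters was not run, since there was 1. A block over the 2 libraries with at least 1 cell of both (chosen after seeing the data, 1 residual degree of freedom) gave 20 and 16, and there *Ankrd37* (0.31) and *Hmgn5* (-0.24) changed direction, neither of them called. The cause of these changes was not tested. RLE size factors and a filter of at least 10 CPM in 2 or more sums kept the counts of both STRT-seq comparisons within 1.5 times.

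Shares of cells moved with depth. Without thinning they were 10.6% for *Otx2* in RPG2, 32.2% for *Prdm14* and 63.6% for *Tfap2c* in RPG3, and 1.32%, 60.4%, 89.6% and 4.68% for *Prdm14*, *Tfap2c*, *Dppa3* and *Otx2* in SSCs. Counting from 2 UMIs on, they were 12.8%, 32.9% and 86.4% for *Prdm14*, *Tfap2c* and *Otx2* in RPG3, and 35.05%, 74.6% and 0.851% for *Tfap2c*, *Dppa3* and *Otx2* in SSCs.

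The main limits are the 3 RPG2 sums, 2 of them of the same batch and day, the overlap of cluster with day, and clusters defined on the same counts.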
